A study of Homo sapiens with 5 samples.

Results

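The mRNAs of 10 Wnt pathway genes were followed through RNA immunoprecipitation sequencing (RIPseq) of FLAG-CBFB and hnRNPK in MCF10A, an established line of human breast epithelium that is not tumorigenic. The 10 were chosen by name as the best known intracellular and receptor components of the pathway: TCF7, TCF7L1, TCF7L2, CTNNB1, AXIN1, APC, DVL1, DVL2, DVL3 and LRP5. Earlier results of these data were known when they were chosen. They are 10 of the 56632 genes in the tables, and all 10 were among the 11764 analysed genes, whose FPKM averaged 1 or more across all 5 libraries. FPKM counts fragments relative to transcript length and to the size of the library. RIP recovers the RNA that comes down with a protein from a lysate, and the input is RNA from matching cells that did not go through the pulldown. CBFB is the partner subunit of the RUNX transcription factors, and hnRNPK binds RNA, with a preference for stretches of C. The study used the data to ask which transcripts CBFB and hnRNPK bind.

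There were 5 libraries. FLAG-CBFB, a CBFB protein with an epitope tag, was pulled down from MCF10A cells expressing it, which gave 1 RIP library and 1 input library of the same cells. An hnRNPK antibody was used on MCF10A cells without the tagged protein, here called parental, which gave 2 RIP repeats and 1 input. All cells were grown untreated in a medium with horse serum, insulin, epidermal growth factor, hydrocortisone and cholera toxin. The labels do not say whether the FLAG-CBFB cells still carried endogenous CBFB, whether they were 1 clone, or whether the hnRNPK repeats came from separate cultures, so the spread between repeats may be technical. For mass spectrometry, the study expressed tagged CBFB in MCF10A cells in which CBFB was knocked out. The sources used here do not say whether the RIPseq cells were the same. No mock pulldown was analysed here, so RNA that sticks to the beads or antibody could not be told apart from bound RNA.

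In the Wnt pathway, secreted ligands bind Frizzled receptors together with LRP5 or LRP6, and the signal passes through the Dishevelled proteins DVL1, DVL2 and DVL3. These hold back a destruction complex built on AXIN1 and APC, which otherwise marks β-catenin, the product of CTNNB1, for breakdown. β-catenin that escapes enters the nucleus and turns TCF/LEF proteins on DNA, among them those of TCF7, TCF7L1 and TCF7L2, from repressors into activators. In epithelial cells β-catenin also links cadherins to the cytoskeleton at junctions.

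The libraries held 69786576 to 106855647 expected counts, and 3 counts, taken as the smallest measurable amount, were at most 4.3e-06% of a library. Mitochondrial transcripts took 4.27% and 11.2% of the inputs but 62.2% of the RIP with FLAG-CBFB and 84.5% and 86.6% of those with hnRNPK, so that the FPKM of most nuclear genes fell in every RIP. Enrichment is therefore the log2(FPKM + 1) in a RIP library less the value in its input, less the mean of this difference over the analysed genes, which was -1.34 for FLAG-CBFB and -2.64 for hnRNPK. It is a position relative to the average gene and not an absolute change. A gene was called enriched above 2 on this scale, or 4-fold. All 8 basal epithelial markers examined reached an FPKM of 1 in both inputs, while 3 of 5 luminal markers, ESR1, PGR and KRT19, did not.

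By the direction of their FPKM, 4 of the transcripts rose and 6 fell in both pulldowns. The 3 TCF mRNAs and DVL3 had a higher FPKM in all 3 RIP libraries than in the matching input, whereas CTNNB1, AXIN1, APC, DVL1, DVL2 and LRP5 had a lower FPKM in all 3. Among all analysed genes, 442 (3.76%) had a higher FPKM in all 3 RIPs. In FLAG-CBFB RIP, 3 of 10 members were called enriched, namely TCF7L1, TCF7 and TCF7L2, against 4.37% of analysed genes. In hnRNPK RIP, 4 of 10 were called, these 3 and DVL3, against 8.2% of analysed genes. The 3 TCF mRNAs passed in both, as did 3.79% of analysed genes. When the libraries were instead scaled to an equal arithmetic mean FPKM, which put the median gene at -2.38 in FLAG-CBFB RIP and -3.36 in hnRNPK RIP, TCF7 came to -0.00013 and -0.18, TCF7L2 to -0.080 and 1.10, and DVL3 to -0.68 and -0.075, while TCF7L1 stayed positive at 2.52 and 1.62. All 10 members were chosen with earlier results of these data known, so these counts describe the members and do not test them. TCF7 is also one of 16 transcripts that the study picked for real-time PCR after RIPseq, so its enrichment here is not independent of that choice.

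**Figure D1:**
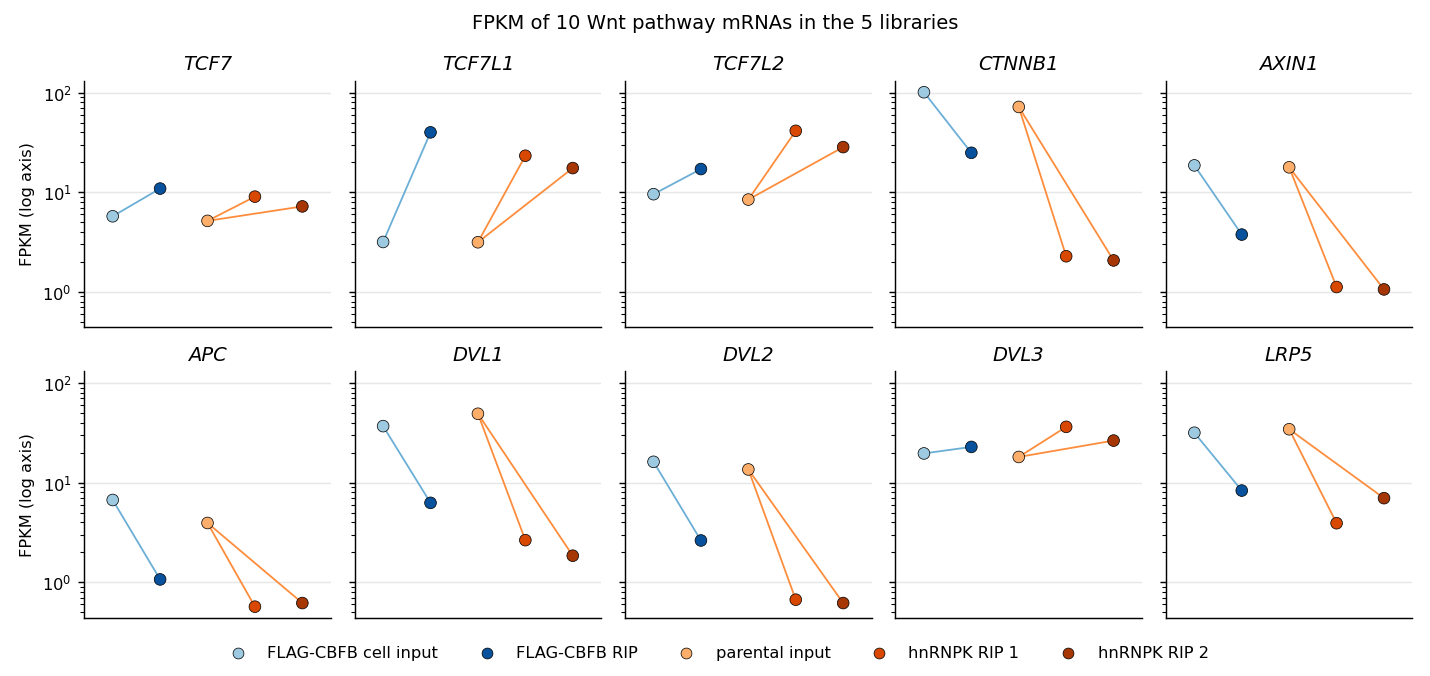
FPKM of each of the 10 members in the 5 libraries, on a log axis, with lines joining each RIP to its own input. The points of TCF7, TCF7L1, TCF7L2 and DVL3 rise from input to RIP, and the points of the other 6 fall.

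TCF7L1, also known as TCF3 and mostly a repressor of Wnt targets, had the highest enrichment of the 10 in both pulldowns. Its FPKM was 3.17 in the FLAG-CBFB cell input and 39.87 in the RIP. In the parental input it was 3.15, and the hnRNPK RIPs had 23.22 and 17.47. The inputs were nearly equal and every RIP library lay above them, by 12.6-fold with FLAG-CBFB and by 7.37-fold and 5.55-fold with hnRNPK. The enrichment was 4.63 for FLAG-CBFB, higher than that of 99.5% of analysed genes, with a 95% counting interval of 0.10 to either side. For hnRNPK it was 4.99 ± 0.23 (SD, n = 2), also at the 99.5th percentile. Counting intervals cover counting error only, since reads without molecular identifiers are not independent molecules.

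TCF7, which encodes the T cell factor TCF1, changed less. Its FPKM was 5.74 in the FLAG-CBFB cell input and 10.88 in the RIP, and 5.16 in the parental input against 9.03 and 7.21 with hnRNPK. The RIP values exceeded both inputs, by 1.90-fold with FLAG-CBFB and by 1.75-fold and 1.40-fold with hnRNPK over their own input. Relative to the average gene this was an enrichment of 2.16 in FLAG-CBFB RIP, just past the threshold, and 3.20 ± 0.15 (SD, n = 2) in hnRNPK RIP. SKP1, a ubiquitin ligase gene on the opposite strand, overlaps the TCF7 gene, and the sources used here do not say whether counting used strand. SKP1 moved the other way, with an FPKM of 512 and 155 in the FLAG-CBFB cell input and RIP, and 432, 17.0 and 14.6 in the parental input and the hnRNPK RIPs. TCF7L1, TCF7L2, APC, DVL1 and CTNNB1 also overlap other annotated genes (3, 2, 3, 2 and 1 of them), whose values are not given here.

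TCF7L2, which encodes TCF4 and is the main TCF of many epithelia, differed between the pulldowns. Its FPKM went from 9.56 to 17.08 in the FLAG-CBFB cells, and from 8.44 to 41.30 and 28.36 in the hnRNPK RIPs. Its enrichment of 2.12 in FLAG-CBFB RIP was close to that of TCF7, whereas its 4.54 ± 0.32 (SD, n = 2) in hnRNPK RIP was close to that of TCF7L1. TCF7L2 and TCF7 differed by 0.04 in FLAG-CBFB RIP, within a counting error of 0.11, and by 1.34 ± 0.17 (SD, n = 2) in hnRNPK RIP. TCF7L1 lay above TCF7L2 by 2.52 in FLAG-CBFB RIP, where no repeat exists, and by 0.45 ± 0.10 (SD, n = 2) in hnRNPK RIP. Differences between genes within a RIP do not depend on the centring.

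The makeup of the TCF transcripts shows the same without any scaling between libraries. Of the summed FPKM of the 3 genes, TCF7L1 made up 17.2% and 18.8% in the inputs, 58.8% after the FLAG pulldown, and 31.6% and 32.9% after the hnRNPK pulldowns. TCF7L2 held 51.8% and 50.4% of the inputs, 25.2% with FLAG-CBFB, and 56.2% and 53.5% with hnRNPK. Thus TCF7L1 was the most abundant of the 3 in FLAG-CBFB RIP and TCF7L2 in both hnRNPK RIPs, as TCF7L2 was in both inputs. The difference between the pulldowns was not tested, because FLAG-CBFB RIP had 1 library.

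**Figure D2:**
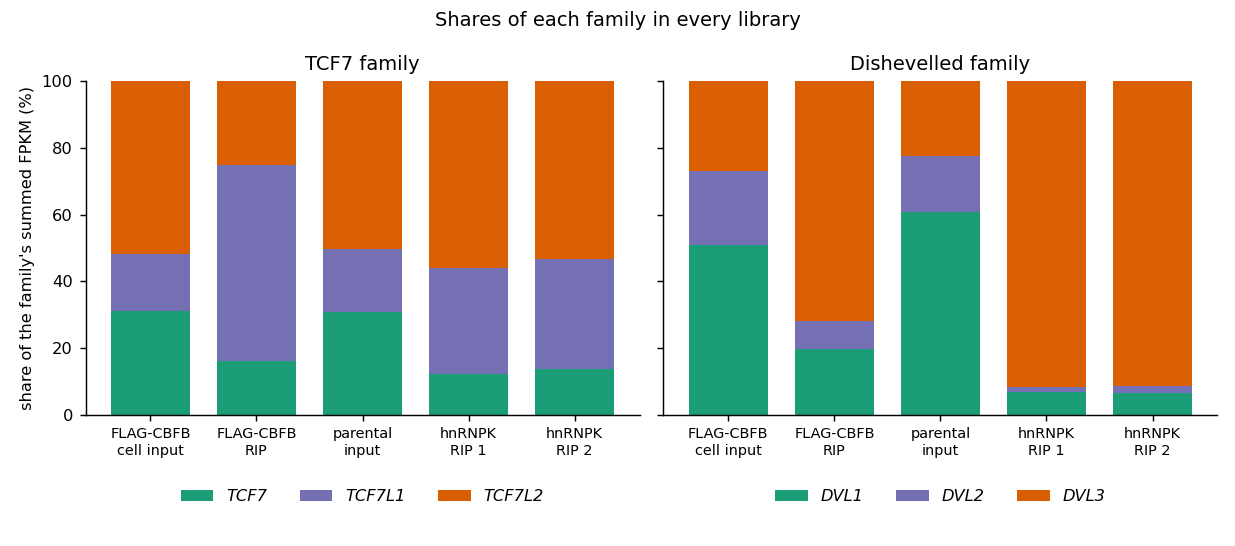
Share of each gene in the summed FPKM of TCF7, TCF7L1 and TCF7L2 (left) and of DVL1, DVL2 and DVL3 (right) in every library, in percent. TCF7L1 rises to 58.8% in the FLAG-CBFB RIP, and DVL3 rises from 27.0% and 22.4% to 72.0% with FLAG-CBFB and to 91.6% and 91.5% with hnRNPK.

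The 3 Dishevelled mRNAs, whose proteins relay the signal from Frizzled to the destruction complex, parted in the pulldowns. DVL3 FPKM was 19.63 and 22.83 in the FLAG-CBFB cell input and RIP, and 18.10, 36.28 and 26.42 in the parental input and the hnRNPK RIPs. DVL1 had 36.90 and 6.27 in the FLAG-CBFB cells and 49.08, 2.65 and 1.85 in the hnRNPK set. DVL2 had 16.18 and 2.63, and 13.56, 0.67 and 0.62. DVL1 was thus the most abundant of the 3 in both inputs and DVL3 in all 3 RIPs.

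Of the summed Dishevelled FPKM, DVL3 held 27.0% in the FLAG-CBFB cell input and 72.0% in its RIP. In the parental cells its share was 22.4% of the input and 91.6% and 91.5% of the hnRNPK RIPs. The share of DVL1 went from 50.7% to 19.8% in the FLAG-CBFB cells, and from 60.8% to 6.69% and 6.40% in the hnRNPK set. DVL3 lay above DVL1 by 2.59 on the log2 scale in FLAG-CBFB RIP, against a counting error of 0.09, and by 4.70 ± 0.06 (SD, n = 2) in hnRNPK RIP. The enrichment of DVL3 itself was 1.55 in FLAG-CBFB RIP, below the threshold of 2 although higher than that of 93.9% of analysed genes, and 3.39 ± 0.26 (SD, n = 2) in hnRNPK RIP. DVL1 had -1.04 in FLAG-CBFB RIP, where only 3.2% of analysed genes were lower, and -1.31 ± 0.20 (SD, n = 2) in hnRNPK RIP, and DVL2 had -0.90 and -0.50 ± 0.02.

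CTNNB1, the most abundant of the 10 in both inputs, had a lower FPKM in every RIP, more so with hnRNPK than with FLAG-CBFB. Its FPKM fell from 100.7 to 24.86 with FLAG-CBFB, and from 71.71 to 2.28 and 2.07 with hnRNPK. These are reductions of 4.05-fold, 31.5-fold and 34.6-fold. Its hnRNPK enrichment of -1.87 ± 0.02 (SD, n = 2) was the lowest of the 10, with 7.89% of analysed genes lower. For comparison, GAPDH, the study's unbound control, had -2.69 ± 0.04 (SD, n = 2), and RUNX1, its bound transcript, had 3.09 ± 0.28 (SD, n = 2). In FLAG-CBFB RIP the enrichment of CTNNB1 was -0.64, with 16.6% of analysed genes lower, and DVL1, DVL2 and AXIN1 were lower still. GAPDH had -0.18 there, near the median of analysed genes at -0.19, and RUNX1 had 2.13. With the parental input in place of its own, CTNNB1 was at -0.12 in FLAG-CBFB RIP, where the median of analysed genes was -0.17. Its low position in that pulldown thus depended on the input. Set against a DNA-binding partner of β-catenin, TCF7L1 exceeded CTNNB1 by 5.27 in FLAG-CBFB RIP and by 6.87 ± 0.21 (SD, n = 2) in hnRNPK RIP.

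AXIN1 and APC, the scaffolds of the destruction complex, behaved unlike each other. AXIN1 had an FPKM of 18.59 and 3.76 in the FLAG-CBFB cell input and RIP, and of 17.78, 1.12 and 1.06 in the parental input and the hnRNPK RIPs. APC, a weaker transcript in these cells, had 6.70 and 1.07, and 3.94, 0.57 and 0.62. AXIN1 was somewhat below the average gene in both pulldowns, at -0.70 and -0.52 ± 0.02 (SD, n = 2). APC was at -0.56 in FLAG-CBFB RIP and at 1.01 ± 0.08 (SD, n = 2) in hnRNPK RIP, although its FPKM fell by 6.91-fold and 6.35-fold there. On the log2(FPKM + 1) scale before centring APC was at -1.65 and -1.61, where the mean over analysed genes was -2.64. From an input of 3.94, even complete loss of APC would have left it above that mean. As a share of counts outside the mitochondrial genome, APC in the hnRNPK RIPs was 0.880 and 1.10 times that in the input, with no consistent direction between repeats.

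LRP5, the co-receptor for Wnt ligands, could not be placed firmly. Its FPKM was 31.66 and 8.33 in the FLAG-CBFB cells, and 34.33, 3.92 and 6.99 in the hnRNPK set. The enrichment was -0.47 in FLAG-CBFB RIP and 0.15 ± 0.54 (SD, n = 2) in hnRNPK RIP, the widest spread between repeats of the 10, with one repeat at -0.24 and the other at 0.53. The expected counts of the repeats, 1551 and 1194, ran in the order opposite to that of the FPKM. The mean transcript length assigned to LRP5 was 4004 and 2057 bases in the repeats and 2984 in the input, and FPKM divides by it.

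**Figure D3:**
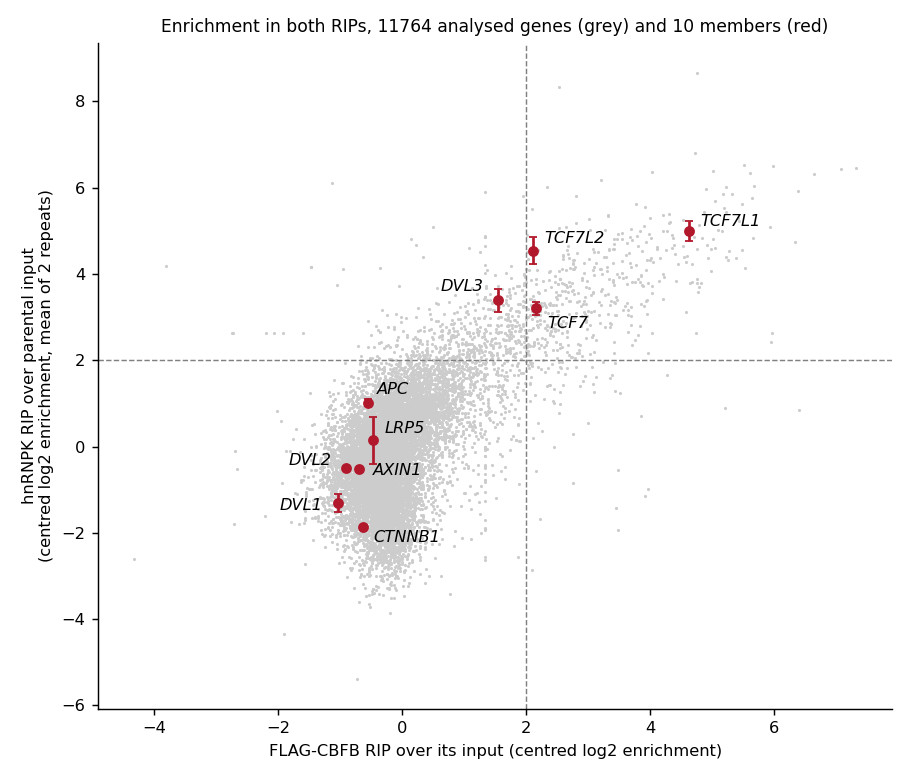
Centred log2 enrichment in FLAG-CBFB RIP (x) and hnRNPK RIP (y, mean of 2 repeats) for 11764 analysed genes in grey and the 10 members in red, with bars for the SD of the 2 repeats and dashed lines at the threshold of 2. TCF7, TCF7L1 and TCF7L2 lie above both thresholds, DVL3 above the hnRNPK threshold alone, and the other 6 inside the main cloud.

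The expected counts of the hnRNPK RIPs could be tested against the parental input with edgeR's quasi-likelihood test, which does not use transcript length and takes its spread from the 2 RIP repeats alone. Benjamini-Hochberg adjusted p-values were taken over all analysed genes. Of the 10 members, 6 were higher in the RIP and 1 was lower at an adjusted p under 0.05, where 24.6% of analysed genes were higher and 14.3% lower. Over all analysed genes the median log2 fold change was -0.10. TCF7L1 had a log2 fold change of 6.72 (SE 0.46, edgeR adjusted p = 8.0e-09) and TCF7L2 one of 5.90 (SE 0.44, edgeR adjusted p = 1.19e-08). DVL3 followed with 4.93 (SE 0.40, edgeR adjusted p = 3.15e-08) and TCF7 with 4.51 (SE 0.42, edgeR adjusted p = 1.32e-07). These 4 were higher in both repeats and under every normalization tried in this test.

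CTNNB1 was the member that fell, by 1.13 (SE 0.32, edgeR adjusted p = 0.0103). APC and LRP5 were higher by smaller amounts, 1.34 (SE 0.37, edgeR adjusted p = 0.00748) and 1.19 (SE 0.35, edgeR adjusted p = 0.0119). As a share of counts outside the mitochondrial genome, LRP5 was lower in both RIP repeats, at 0.891 and 0.901 times the input. Both calls were lost without the filter on low counts, with log2 fold changes of 0.93 and 0.79 and edgeR adjusted p of 0.0524 and 0.103. DVL1, DVL2 and AXIN1 did not pass, with log2 fold changes of -0.43, -0.42 and -0.10 and edgeR adjusted p of 0.325, 0.374 and 0.834.

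The inputs of the FLAG-CBFB and the parental cells were also set against each other for these genes. The centred log2 ratio between the inputs, FLAG-CBFB cells over parental cells, ranged from -0.37 for DVL1 to 0.67 for APC. None of the 10 was more than 4-fold apart, against 1.33% of analysed genes, a share too small to show among 10. The quartiles over all analysed genes were -0.37 and 0.39. APC and CTNNB1 (0.51) lay above the upper one and DVL1 at the lower one, so the members did not differ less than other genes. For TCF7L1 the ratio was 0.04, so its RIP values were set against nearly the same level in both cell lines. APC turned from -0.56 to 0.12 in FLAG-CBFB RIP when the parental input was used.

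Since hnRNPK prefers C-rich RNA, the C-tracts of the 10 transcripts were counted. A C-tract here is a run of at least 4 C (CCCC or longer) on the sense strand, each run counted once, in the longest protein-coding transcript of the gene in GENCODE 29 on GRCh38. The 30-base window with the most C is shown for the 3 TCF transcripts and for 4 that were not enriched, 5′ to 3′, with C-tracts in capitals.
TCF7L1: CCCCCggctCCCCtcccacccacctctccc
TCF7: ctCCCCCatCCCCCactgccacaccctccc
TCF7L2: ctCCCCCCCCttCCCCtCCCCtcctccctc
DVL1: accgCCCCggggctCCCCCCgCCCCaCCCC
DVL2: caCCCCgcggcccgCCCCCCgccgccaccc
CTNNB1: actttccaccgCCCCCtcgcgCCCCgCCCC
APC: cctccaccacctcctcaaacagctcaaacc

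On the same build, the genes of the 4 transcripts that rose are TCF7L1 (ENSG00000152284, chr2:85133410-85310388), TCF7 (ENSG00000081059, chr5:134114711-134151865), TCF7L2 (ENSG00000148737, chr10:112950250-113167678) and DVL3 (ENSG00000161202, chr3:184155311-184173614), all on the plus strand. CTNNB1 (ENSG00000168036) lies at chr3:41194741-41260096 on the plus strand and DVL1 (ENSG00000107404) at chr1:1335276-1349350 on the minus strand. The window of TCF7L1 is coding sequence in exon 5 (chr2:85302566-85302595, plus strand). That of TCF7 lies in the 3′ UTR in exon 11 (chr5:134146880-134146909, plus strand), and that of TCF7L2 in the 5′ UTR in exon 1 (chr10:112950556-112950585, plus strand). The DVL1 window is coding, in exon 15 (chr1:1336292-1336321, minus strand), and the DVL2 and CTNNB1 windows are in the 5′ UTR, in exon 1 (chr17:7234415-7234444, minus strand, and chr3:41199377-41199406, plus strand). The APC window, coding in exon 16 (chr5:112839909-112839938, plus strand), holds 16 C and no C-tract. A window of this size with at least 20 C is common, being found in 24.9% of the 10547 analysed protein-coding genes with a listed transcript, and the windows of CTNNB1, DVL1 and DVL2, which were not enriched, reach it too. The 23 C of the TCF7L2 window were reached by 2.53% of these genes, and at least 1 C-tract was present in 98.4%.

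Counted over the whole transcript, TCF7L1 had 14.8 C-tracts per kilobase, more than 98.8% of those genes, and TCF7 had 11.7 and TCF7L2 9.43. The median over all genes was 3.47. CTNNB1 had 3.04 and APC 1.78, below that median. The 3 Dishevelled transcripts, in contrast, had similar densities of 10.2 (DVL1), 9.28 (DVL2) and 8.97 (DVL3), and AXIN1 had 8.78 and LRP5 6.78. The TCF transcripts thus had higher densities than CTNNB1 and APC, also with runs of at least 3 or 5 C and with the median over the transcripts of a gene. With that median TCF7L1 had 9.20 per kilobase (90.5th percentile), below TCF7 (12.2), LRP5 (11.1), DVL1 (10.6) and TCF7L2 (9.39). Among the Dishevelled transcripts DVL3 was lowest with runs of at least 4 C in the longest transcript, and DVL2 was lowest under the other 3 definitions.

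The number of C-tracts in each region did differ among the Dishevelled transcripts, as did the length of the regions. DVL3 had 47 in a transcript of 5241 bases, of which 32 were in the 3′ UTR and 15 in the coding sequence. DVL1 had 33 in 3239 bases with 11 in the 3′ UTR, and DVL2 had 28 in 3018 bases with 4 there. The 3′ UTRs were 2856 (DVL3), 866 (DVL1) and 524 (DVL2) bases long. Per kilobase of 3′ UTR, DVL1 had 12.7 C-tracts, more than DVL3 with 11.2 and DVL2 with 7.63. In TCF7L1, 29 of 44 were in the coding sequence, and in TCF7 and TCF7L2 24 and 23 of 39 were. CTNNB1 had 9 of its 12 in the 5′ UTR and 0 in the 3′ UTR. These are descriptions of sequence, and the RIP data do not show where on a transcript either protein was bound.

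Among the 10547 protein-coding genes, density and enrichment moved together, but weakly. Their rank (Spearman) correlation was 0.23 in either pulldown. Transcript length had one of 0.30 with hnRNPK enrichment and of -0.32 with FLAG-CBFB enrichment. The share called enriched in hnRNPK RIP was 0.834%, 2.62%, 6.34% and 18.5% from the lowest to the highest of 4 equal bins of C-tract density, and in FLAG-CBFB RIP 0.114%, 0.303%, 1.97% and 11.9%. The highest bin held 8 members, the 3 TCF mRNAs, the 3 Dishevelled mRNAs, AXIN1 and LRP5, while APC was in the lowest bin and CTNNB1 in the next. All 4 members enriched in hnRNPK RIP therefore lay in the highest bin, together with 4 that were not. Density also follows base composition and the choice of transcript. The part of these and of transcript length in this relation was not tested.

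**Figure D4:**
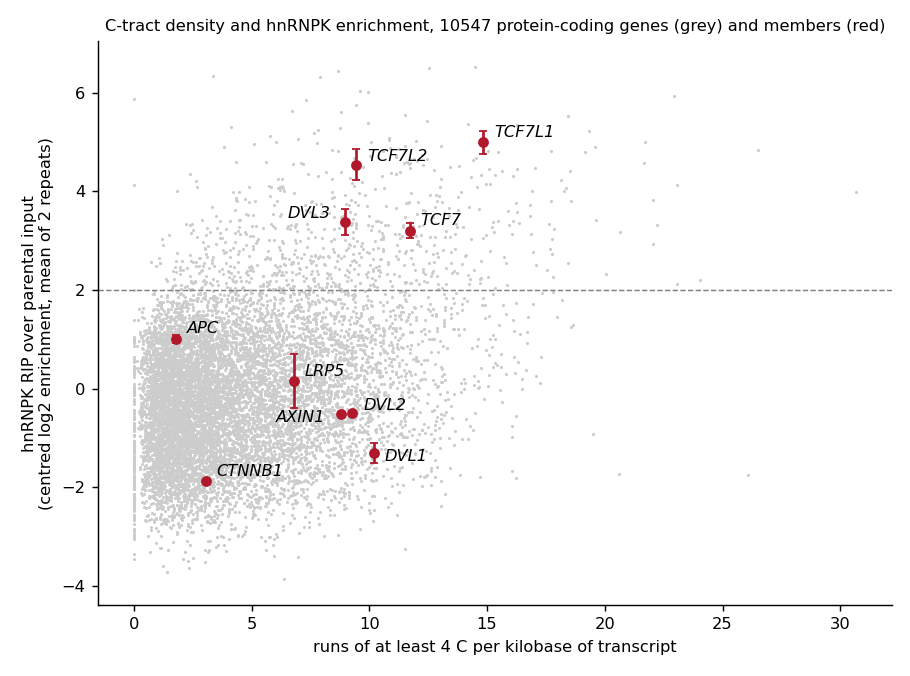
C-tracts per kilobase of transcript (x) and hnRNPK enrichment (y, mean of 2 repeats, bars SD) for 10547 protein-coding genes in grey and the members in red, with a dashed line at the threshold of 2. DVL1, DVL2 and DVL3 lie at nearly the same density but far apart in enrichment.

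To see how far other pathway genes shared this pattern, 96 of them were listed by role, of which 51 were analysed. In FLAG-CBFB RIP 1 of the 51 was enriched (1.96%, against 4.37% of analysed genes). In hnRNPK RIP 8 were (15.7%, against 8.2%). With a centring mean of -2.64 there, a gene whose FPKM did not change also passes 2. The 8 include WNT4, whose FPKM was 0.37 or less in that comparison and whose call carries no weight. FPKM itself rose in both hnRNPK RIPs for 3 of the 51 (5.88%, against 4.27% of analysed genes). By edgeR 23 were higher and 3 lower at an adjusted p under 0.05 (45.1% and 5.88%, against 24.6% and 14.3%). The median hnRNPK enrichment of the 51 was 0.62, and that of the 10 members was 0.58, against -0.11 over all analysed genes. The median FLAG-CBFB enrichment was -0.16 for the 51 and -0.51 for the members, against -0.19.

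Of 15 analysed genes of the destruction complex and its regulators, GSK3A alone was enriched in either pulldown. This was 6.67% in each, near the 4.37% of analysed genes with FLAG-CBFB and the 8.2% with hnRNPK. GSK3A encodes a kinase that phosphorylates β-catenin, and is, like TCF7, among the 16 transcripts picked by the study. Its FPKM was 38.52 and 323 in the FLAG-CBFB cell input and RIP, and 42.80, 161 and 198 in the parental input and the hnRNPK RIPs. The enrichment was 4.37 in FLAG-CBFB RIP and 4.68 ± 0.26 (SD, n = 2) in hnRNPK RIP, close to that of TCF7L1. Its paralogue GSK3B had 0.000565 and 0.97 ± 0.51 (SD, n = 2). GSK3B was nevertheless higher in the hnRNPK RIP counts (log2 fold change 3.20, SE 0.39, edgeR adjusted p = 3.22e-06), where its assigned mean length rose from 2896 bases in the input to 5314 and 6235 in the RIPs.

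The 12 analysed cofactors of TCF proteins in the nucleus had a median enrichment of 0.75 in FLAG-CBFB RIP and 1.43 in hnRNPK RIP, against -0.19 and -0.11 over all analysed genes. By edgeR 9 of the 12 were higher in the hnRNPK RIP at an adjusted p under 0.05, against 24.6% of analysed genes. Enriched with hnRNPK were 3 of the 12 (25%, against 8.2%), namely BCL9L, BCL9 and LEF1, BCL9L and BCL9 encoding adaptors between β-catenin and Pygopus proteins and LEF1 the remaining TCF/LEF factor. BCL9L, with 1.97 in FLAG-CBFB RIP, missed the threshold narrowly, and had 3.996 ± 0.42 (SD, n = 2) in hnRNPK RIP. LEF1 had 0.81 and 2.04 ± 0.09 (SD, n = 2), lower than any of the 3 TCF mRNAs, and its FPKM fell in every RIP. The FPKM of BCL9 fell as well, from 3.21 in the parental input to 2.96 and 2.73 with hnRNPK.

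Of the 5 junction partners of β-catenin, CTNND1 (p120 catenin) and JUP (plakoglobin, a close relative of β-catenin) were enriched with hnRNPK at 3.11 ± 0.22 and 2.36 ± 0.42 (SD, n = 2), with 1.03 and 1.45 in FLAG-CBFB RIP. CTNNA1 (α-catenin) was at -1.99 ± 0.25 (SD, n = 2), near CTNNB1. The plakoglobin and β-catenin transcripts thus lay on opposite sides of the average gene in both pulldowns. None of the 7 analysed receptors, 3 genes of receptor turnover or 2 secreted inhibitors was enriched in either. Over all analysed genes 4.37% were with FLAG-CBFB and 8.2% with hnRNPK, and these groups are too small to set against those shares.

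Most Wnt ligands were too weak to analyse, 3 of 19 passing the filter on FPKM. WNT7B had an hnRNPK enrichment of 2.63 ± 0.15 (SD, n = 2), with an FPKM of 1.91 in the input and 1.75 and 2.04 in the RIPs. WNT4 was above the threshold at 2.31 ± 0.06 (SD, n = 2), but with an FPKM of 0.37 in the input and 0.08 and 0.09 in the RIPs, where adding 1 to each value leaves almost no room to fall before centring. It passed the filter on mean FPKM only through the FLAG-CBFB cell input, at 4.19. Leaving out the 10 members, the lowest of the pathway genes in FLAG-CBFB RIP were CSNK1G2, CCND1 and PPP2CA at -1.12, -0.98 and -0.93. PPP2CA, a catalytic phosphatase subunit, was also the lowest of these with hnRNPK at -2.38 ± 0.40 (SD, n = 2), although its counts did not pass (log2 fold change -0.16, edgeR adjusted p = 0.718), its assigned mean length being 1495 bases in the input and 2621 and 3813 in the RIPs.

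**Figure D5:**
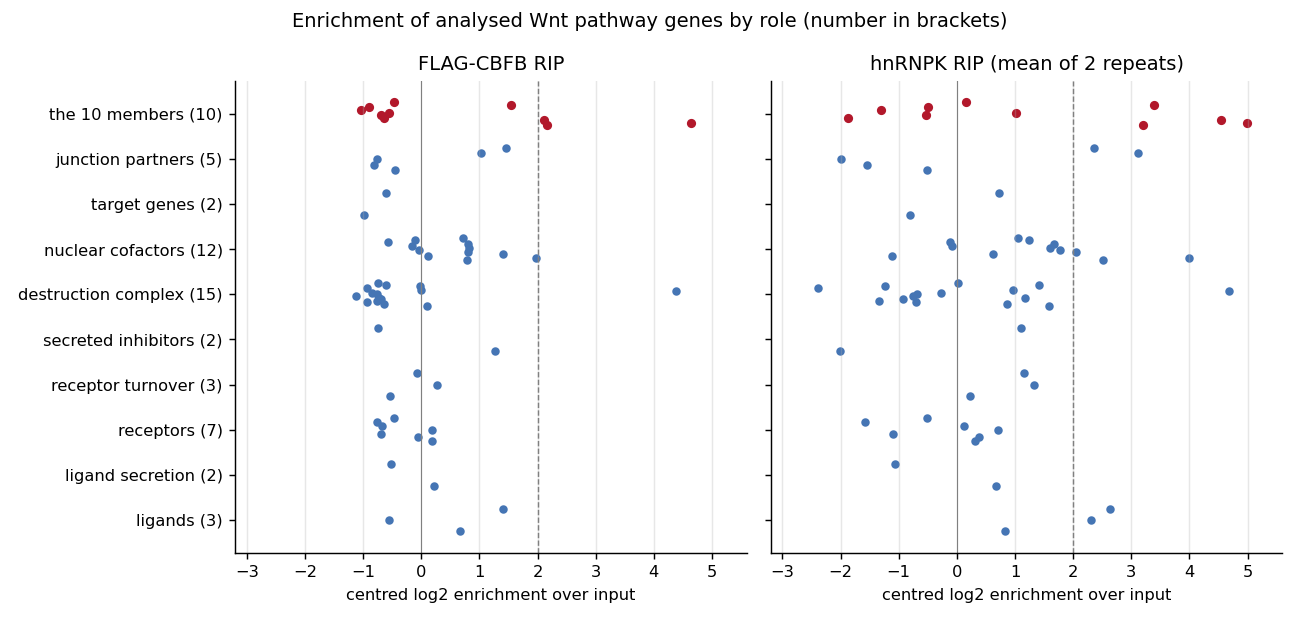
Centred log2 enrichment in FLAG-CBFB RIP (left) and hnRNPK RIP (right, mean of 2 repeats) of the analysed Wnt pathway genes grouped by role, in blue, and of the 10 members, in red, with a solid line at 0 and a dashed line at the threshold of 2. The single blue point beyond the threshold on the left is GSK3A, at 4.37.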

How the data were processed

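RIPseq libraries of MCF10A cells were analysed from tables with 1 row per gene, and each sample was grouped by its title. Per the submitters' processing notes, reads passed through Trimmomatic, STAR and RSEM with the hg19 build. Versions and the annotation release are not given in the sources used here. The estimated count per gene from RSEM was deposited under the name expected count, and the deposited FPKM values divide these by effective transcript length and library total. The length column is a mean length weighted by abundance. The authors' notes describe no pooling of repeats.

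Symbols came from a gene name table and GENCODE 29 (GRCh38), with 51497 of 56632 identifiers matched. Gene coordinates, C-tracts and printed sequences are those of GENCODE 29 on GRCh38, with no conversion from hg19. The C-rich window of DVL3 is not reported here. Gene lengths in the tables let FPKM be compared between genes, while counts were compared only within a gene.

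The enrichment used log2(FPKM + 1), so it understates the changes of weak genes before centring. With 1 library per arm, FLAG-CBFB RIP was not tested. The expected counts were rounded and tested with edgeR 4.0.16 in R 4.3.3 (TMM factors, quasi-likelihood test), 2 hnRNPK RIPs against 1 input, with Benjamini-Hochberg adjustment over 11764 genes. These p-values measure only the spread between the repeats. The scripts were tested on simulated data. Precision was given as exact 95% binomial intervals on the count ratios. At this depth the counting error of the members' log2 ratios was 0.04 to 0.25 to either side.

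The 10 members were always named, with GAPDH and RUNX1 for comparison. Other pathway genes, listed by role, were named when among the 3 highest or 3 lowest in a pulldown with at least 50 counts over its libraries. GSK3B, SKP1, BCL9, LEF1, WNT7B, WNT4, TNKS and SFRP1 were named after their values were seen. The members and lists were chosen with earlier results of these data known. Alternatives were another pseudocount (0.1), centring, scaling, filter, input, threshold, unit (log2 CPM with TMM or DESeq2 1.42.0 size factors), DESeq2 as the test, each repeat alone and C-tracts of at least 3 or 5 C. Rescaling without mitochondrial genes together with a pseudocount of 0.1 and no centring, and the median over transcripts of a gene, were chosen after seeing the data.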

Additional observations from a re-analysis of the deposited data

Results flagged for a closer look

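APC and the pathway gene DKK1, a secreted Wnt inhibitor, lay on opposite sides of the average gene in the 2 pulldowns. Other pathway genes did too, among them TNKS (-0.60 with FLAG-CBFB and 1.41 with hnRNPK), SFRP1 (-0.74 and 1.11) and the member LRP5 (-0.47 and 0.15). APC and TNKS had a parental input FPKM of only 3.94 and 4.22. With 1 added to each FPKM, even complete loss from the hnRNPK RIPs would have left both above the average gene after centring. Their side in hnRNPK RIP was therefore fixed by the measure. For APC the enrichment was -0.56 with FLAG-CBFB and 0.96 and 1.07 with hnRNPK, which is -1.57 for FLAG-CBFB minus hnRNPK. For DKK1 it was 1.26 with FLAG-CBFB and -2.54 and -1.48 with hnRNPK, which is 3.27 on the same measure. The DKK1 inputs were themselves unequal, with an FPKM of 11.30 in the FLAG-CBFB cells and 59.58 in the parental cells. These differences were not tested, since FLAG-CBFB RIP had 1 library. Uncentred, APC fell in all 3 RIPs by similar amounts, at -1.90 with FLAG-CBFB and -1.65 and -1.61 with hnRNPK. Rescaled without mitochondrial genes, with a pseudocount of 0.1 and no centring, APC was at -1.31 with FLAG-CBFB and 0.37 with hnRNPK. The size of its difference between the pulldowns thus varied with the scaling, and its cause was not tested.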

How the results depend on the processing

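TCF7L1 stayed above 2 in FLAG-CBFB RIP in all 11 alternatives (2.52 to 5.53). DVL3 passed 2 there in 2 of 11, those on log2 CPM, at up to 2.18. No centring left 1 member above 2 in each pulldown, with medians of -1.85 (FLAG-CBFB) and -2.06 (hnRNPK), and turned APC to -1.63 and LRP5 to -2.49 with hnRNPK. An equal arithmetic mean FPKM left 1 and 0 members, with medians of -2.68 and -2.71. It turned TCF7, TCF7L2 and DVL3 to -0.00013, -0.080 and -0.68 in FLAG-CBFB RIP, and TCF7, APC, DVL3 and LRP5 to -0.18, -2.16, -0.075 and -3.27 with hnRNPK. Centring over all 56632 genes left 1 and 2 members, with medians of -1.53 and -1.45 and APC and LRP5 at -1.02 and -1.89 with hnRNPK. These settings shift every gene alike or nearly so, as the all-gene medians of -1.53 and -2.75 without centring show.

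With the opposite input the medians were -0.0026 and 0.29, and APC turned to 0.12 in FLAG-CBFB RIP. The hnRNPK median was 0.83 with a pseudocount of 0.1, 0.38 rescaled without mitochondrial genes (pseudocount 0.1, no centring), 1.13 on log2 CPM with TMM factors and 1.30 with DESeq2 size factors, and 0.36 to 0.80 with either repeat alone, where LRP5 ranged from -0.24 to 0.53. The FLAG-CBFB median was -0.32 under median centring and also on log2 CPM with DESeq2 size factors. The cause of these shifts was not tested. Over all analysed genes, the 965 called with hnRNPK became 89 without centring and 37 with an equal mean, 1689 with TMM and 1831 with DESeq2 size factors, and the 514 called with FLAG-CBFB became 187 and 94 without centring and with an equal mean.

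In the edgeR test, the calls on the members changed only without the low-count filter, where 4 in place of 6 were higher, and the genes lower over all rose from 1677 to 3443. DESeq2 called 846 lower. Without a hnRNPK repeat no residual degrees of freedom remain, so those fold changes have no test. LRP5 was at the 77.2nd percentile of C-tract density, at the 56.7th with tracts of at least 5 C and at the 95.2nd with the median over its transcripts. No paired analysis was possible because only the hnRNPK RIP has numbered repeats and both share 1 input. With 141 to 17920 counts per member in the hnRNPK RIPs, depth limits DVL2 most.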
